A study of Homo sapiens with 6 samples.

Results

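The 10 genes described here are the Notch receptors NOTCH1, NOTCH2, NOTCH3 and NOTCH4, their ligands JAG1, JAG2, DLL1 and DLL4, and the target genes HES1 and HEY1, picked by symbol from the 58735 genes of a table of FPKM (read numbers scaled for gene length and library depth, so that levels of different genes can be set side by side). All 10 were present in the table. The 6 RNA sequencing libraries were labelled as SW480, a line from a human colorectal adenocarcinoma grown in L-15 medium with serum. Of these, 3 carried the genotype label DDX39B overexpression and 3 the label WT, with titles that mark them as controls. The sources used here do not give how DDX39B was introduced, whether the line was a clone or a pool, or whether each library had its own culture, so p-values measure the spread between these libraries only.

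DDX39B, which encodes an RNA helicase of mRNA splicing and export, went against the labels. It measured 39.3, 34.6 and 41.9 FPKM in the libraries labelled WT and 15.02, 13.9 and 14.03 FPKM in those labelled overexpression, 2.70-fold lower under the overexpression label (limma adjusted p = 6.93e-06). Every direction below is therefore drawn from the labels as given, and whether the labels were exchanged or the groups are of different lines was not tested. Depth was 16963075 to 17463697 reads per library, worked out from the table. Markers of colon epithelium set the groups apart. Of 12 such markers, 7 were tested and all 7 were higher under the overexpression label. The summed level of the 12 was 1481 to 1499 FPKM there and 358 to 431 FPKM in the WT-labelled libraries. Most of both sums came from KRT8 (681 and 179 FPKM) and KRT18 (610 and 202 FPKM). In the WT-labelled libraries CDX2, the intestinal homeobox factor, and GPA33 had 0 reads, and CDX1 had 0 reads in all 6 libraries. Of the 12 markers, 9 averaged under 1 FPKM in the WT-labelled libraries and 5 in the overexpression-labelled ones. KRT20, too low for the test, lay the other way, with 6 reads under the overexpression label and 80 under the WT label. Whether this difference plays a part in the results below was not tested.

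Notch receptors are single-pass membrane proteins that are activated by ligands on a neighbouring cell. Ligand binding exposes the receptor to an ADAM protease and then to gamma-secretase, which frees the intracellular domain to enter the nucleus. There it joins the DNA-binding protein RBPJ and a Mastermind coactivator and turns on repressor genes of the HES and HEY families. In the intestine the pathway keeps crypt progenitors proliferating, and HES1 holds back ATOH1 and with it the secretory fate.

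The upstream sequence of HES1 is shown because HES1 was the most abundant member under the overexpression label, and it was the only member searched that held a match to the RBPJ core letters TGGGAA. It is the stretch chr3:194135898-194136144 (plus strand, GRCh38.p14, from RefSeq), which ends where the gene model of the deposited table begins, with the core in capitals.

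HES1: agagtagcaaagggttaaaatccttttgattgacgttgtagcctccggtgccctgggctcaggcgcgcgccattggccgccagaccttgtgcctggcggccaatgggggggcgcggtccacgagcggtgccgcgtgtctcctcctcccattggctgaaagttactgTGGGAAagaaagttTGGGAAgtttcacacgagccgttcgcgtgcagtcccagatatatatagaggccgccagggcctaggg

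The upstream sequence of NOTCH3, the member with the largest difference between the groups, is chr19:15200996-15201245 (minus strand). It held no match to the core, and 78% of its bases were G or C, against a median of 58% over all promoters. High shares were not particular to NOTCH3, since the 8 members searched ran from 58.0% to 81.6%, with JAG2 the highest.

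NOTCH3: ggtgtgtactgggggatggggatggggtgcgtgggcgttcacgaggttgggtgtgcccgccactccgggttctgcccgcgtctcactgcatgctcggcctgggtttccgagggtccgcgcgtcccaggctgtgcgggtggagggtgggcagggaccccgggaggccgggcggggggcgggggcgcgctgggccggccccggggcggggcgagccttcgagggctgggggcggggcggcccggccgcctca

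Promoters of 8 members were in the RefSeq table, those of DLL1 and HEY1 being absent from it. The core was searched on both strands of the 250 bases before each start and was found in 1 of the 8, and in 20.8% of all 35116 promoters. HES1 held it at 2 places, 84 and 70 bases before the start, both on the sense strand with 8 bases between them, and 2.90% of all promoters held it at 2 or more places. Of 8 other HES and HEY genes, 5 held the core. For HES4, HES5 and HEYL as for HES1, a match on the sense strand lay 76 to 99 bases before the RefSeq start. Their 30-base stretches, aligned on the core (capitals), are shown to compare HES1 with other members of its family.

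HES1: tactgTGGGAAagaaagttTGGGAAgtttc

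HES4: gagtgTGGGAAagaatgcggagccgggttc

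HES5: gagtgTGGGAAcggccgcggcgcccggact

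HEYL: ggcccTGGGAAagggcggtggcggcgcccc

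The stretches lie at chr3:194136059-194136088 (plus strand), chr1:1000149-1000178, chr1:2530319-2530348 and chr1:39639718-39639747 (all minus strand). Against the gene models of the deposited table, the stretches of HES1 and HES5 lie upstream, whereas 24 of the 30 bases of HES4 and all 30 of HEYL lie inside the gene. The later core of HES1 has no counterpart in the other 3 stretches. Over the full 250 bases, however, HES5 and HEYL also held 2 matches each. Their further match lay on the antisense strand, 224 bases before the start in HES5 and 178 in HEYL. The N box letters CACNAG, which HES proteins are known to bind, were found in 3 of the 8 members (HES1, NOTCH3 and NOTCH4) and in 32.0% of all promoters, with 3 matches in HES1. A match is a description of these letters and not evidence of binding.

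Of the 10 members, 7 averaged at least 1 FPKM across all 6 libraries and entered the test. Of these, 2 were higher in the overexpression-labelled group (DLL1 and HES1) and 5 lower (NOTCH1, NOTCH2, NOTCH3, JAG1 and JAG2) at a limma adjusted p of 0.05. Of all 13972 genes tested, 76.8% were called, 37.5% higher and 39.3% lower, so that 7 of 7 lies near the background. For none of the 7 did the groups overlap, as for 80.1% of all genes tested. DLL1 passed the filter through the overexpression-labelled libraries alone, and NOTCH3 through the WT-labelled ones, so both had to differ. The median log2 fold change of the 7 was -0.83, beside -0.03 over all genes tested, and the median of the absolute values was 1.01 beside 0.62.

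**Figure D1:**
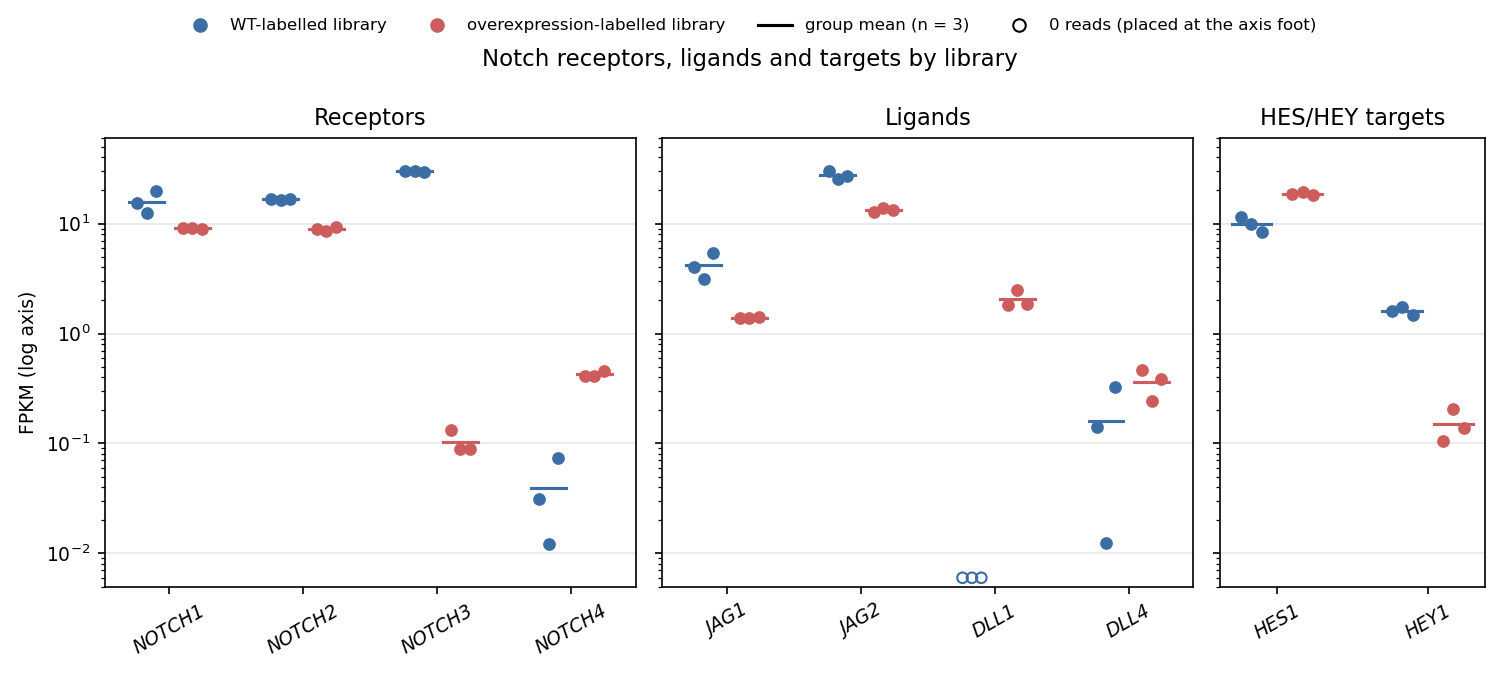
FPKM on a log axis of the 10 members in each library (points) with group means (bars, n = 3), for receptors, ligands and targets, with 0 reads drawn hollow at the axis foot. NOTCH3 lies near 30 FPKM in the WT-labelled and near 0.1 FPKM in the overexpression-labelled libraries, DLL1 has 0 reads in all 3 WT-labelled libraries, and the points of DLL4 alone overlap between the groups.

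Among the receptors, NOTCH3 showed the largest difference. NOTCH3, a receptor best known from vascular smooth muscle (ENSG00000074181, chromosome 19, 15159038 to 15200981, minus strand), stood at 30.3, 30.1 and 29.2 FPKM in the WT-labelled libraries and 0.133, 0.0884 and 0.0894 FPKM in the overexpression-labelled ones. All 3 WT-labelled libraries were high and the 3 others low, with 14009 reads against 52. The group means came to 29.9 ± 0.60 and 0.104 ± 0.025 FPKM (SD, n = 3 each), so NOTCH3 was 289-fold lower where the overexpression label stood. On the FPKM + 1 scale the log2 difference came to -4.81 (SE 0.055, limma adjusted p = 1.15e-08), and it was -7.21 with 0.1 added in place of 1 and -8.05 with voom on the reads. By size it ranked 50 among the 7137 tested genes with a negative value.

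Markers of the vascular wall cells in which NOTCH3 is a familiar gene differed in both directions. Of 8 pericyte and smooth muscle markers 4 were tested, of which 1 (ACTA2) was higher and 1 (CSPG4) lower under the overexpression label. ACTA2 averaged 2.46 FPKM under the overexpression label and 0.176 FPKM under the WT label, and CSPG4 0.187 and 10.6 FPKM. Each passed the filter through 1 group alone, so both had to differ. The summed level of the 8 markers was 6.75 to 8.03 FPKM across overexpression-labelled libraries and 14.4 to 17.6 FPKM in the WT-labelled libraries. CSPG4 carried that difference, and without it the sum of the other 7 was 6.50 to 7.84 FPKM under the overexpression label and 5.20 to 5.79 FPKM under the WT label. The pericyte marker PDGFRB, too low for the test, was at 0.201 FPKM (77 reads) under the overexpression label and 1.41 FPKM (504 reads) under the WT label, with no overlap. RGS5 and CNN1, also too low, lay the other way, with overlap between the groups. RGS5 had 107 reads under the overexpression label and 72 under the WT label, and CNN1 15 and 5. MYH11, a defining gene of smooth muscle, averaged 0.110 FPKM under the overexpression label and 0.0897 FPKM under the WT label. The part of such cells in the NOTCH3 result was not tested, and in bulk RNA fewer cells of a type cannot be told from less RNA per cell.

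NOTCH1 and NOTCH2 were also lower under the overexpression label, by less than 2-fold. NOTCH1, the main receptor of intestinal progenitors together with NOTCH2 (ENSG00000148400, chromosome 9, 136494433 to 136545786, minus strand), stood at 15.3, 12.5 and 19.7 FPKM in the WT-labelled and 9.14, 9.14 and 8.99 FPKM in the overexpression-labelled libraries. The WT-labelled libraries were all higher but spread widely, with a coefficient of variation of 23.0% beside 0.923% in the other group. The group means, 15.8 ± 3.6 and 9.09 ± 0.084 FPKM (SD, n = 3 each), lay 1.74-fold apart (log2 fold change -0.72, SE 0.15, limma adjusted p = 3.72e-03).

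NOTCH2 (ENSG00000134250, chromosome 1, 119911553 to 120069626, minus strand) stood at 16.8, 16.5 and 16.6 FPKM in the WT-labelled and 8.94, 8.48 and 9.28 FPKM in the overexpression-labelled libraries. Its WT-labelled values were as tight as those of NOTCH1 were loose, with a coefficient of variation of 0.972%, where the median over genes was 10.8% in that group and 4.83% in the other. The level was 1.87-fold lower under the overexpression label (log2 fold change -0.83, SE 0.053, limma adjusted p = 1.05e-05). NOTCH2NLA, a partial copy of NOTCH2 with which it may share reads, measured 0.333 ± 0.020 FPKM in the WT-labelled and 0.139 ± 0.038 FPKM in the overexpression-labelled ones (SD, n = 3 each).

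NOTCH4, a receptor typical of endothelium (ENSG00000204301, chromosome 6, 32194843 to 32224067, minus strand), was the only receptor that was higher under the overexpression label, at a level too low for the main test. It had 5, 2 and 12 reads in the WT-labelled and 71, 73 and 79 reads in the overexpression-labelled libraries, or 0.0315, 0.0122 and 0.0736 FPKM against 0.413, 0.415 and 0.454 FPKM. The groups did not overlap and the means differed 10.9-fold. Without a filter on low values, where 44.5% of 33913 genes were called, 24.0% higher and 20.5% lower, it rose by 0.46 in log2 units (SE 0.043, limma adjusted p = 3.59e-04). NOTCH4 shares 98 exon bases on the same strand with GPSM3, which averaged 7.31 FPKM across overexpression-labelled libraries and 0.216 FPKM in the WT-labelled libraries, and the part of shared reads was not tested. The endothelial markers KDR and EMCN had 0 reads in all 6 libraries and all 10 such markers averaged under 1 FPKM under the overexpression label. Their summed level was 1.07 to 1.52 FPKM there and 36.2 to 50.7 FPKM in the WT-labelled libraries, where ESAM made up 43.5 FPKM. The untested endothelial markers were split in direction. VWF lay in the direction of NOTCH4, at 0.586 FPKM (326 reads) under the overexpression label and 0.0462 FPKM (24 reads) under the WT label. FLT1 had 14 reads against 2, TIE1 3 against 1 and CLDN5 7 against 6. In the other direction, CDH5 had 0 reads under the overexpression label and 42 under the WT label, TEK 0 and 45, and PECAM1 1 and 6. The part of endothelial cells in the NOTCH4 values was not tested.

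Added up, the 4 receptors came to 62.4 ± 3.2 FPKM in the WT-labelled and 18.5 ± 0.36 FPKM in the overexpression-labelled ones (SD, n = 3 each). NOTCH3 made up 44.5% to 50.9% of that sum in the WT-labelled libraries and 0.475% to 0.713% in the others. NOTCH1 and NOTCH2 then held near-equal shares under the overexpression label, 47.8% to 50.4% and 46.8% to 49.3%. Their ratio, NOTCH2 over NOTCH1, was 0.928 to 1.03 there and 0.840 to 1.32 in the WT-labelled libraries, so it overlapped between the groups. The share of NOTCH4 was 2.22% to 2.41% under the overexpression label and at most 0.112% in the WT-labelled libraries.

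**Figure D2:**
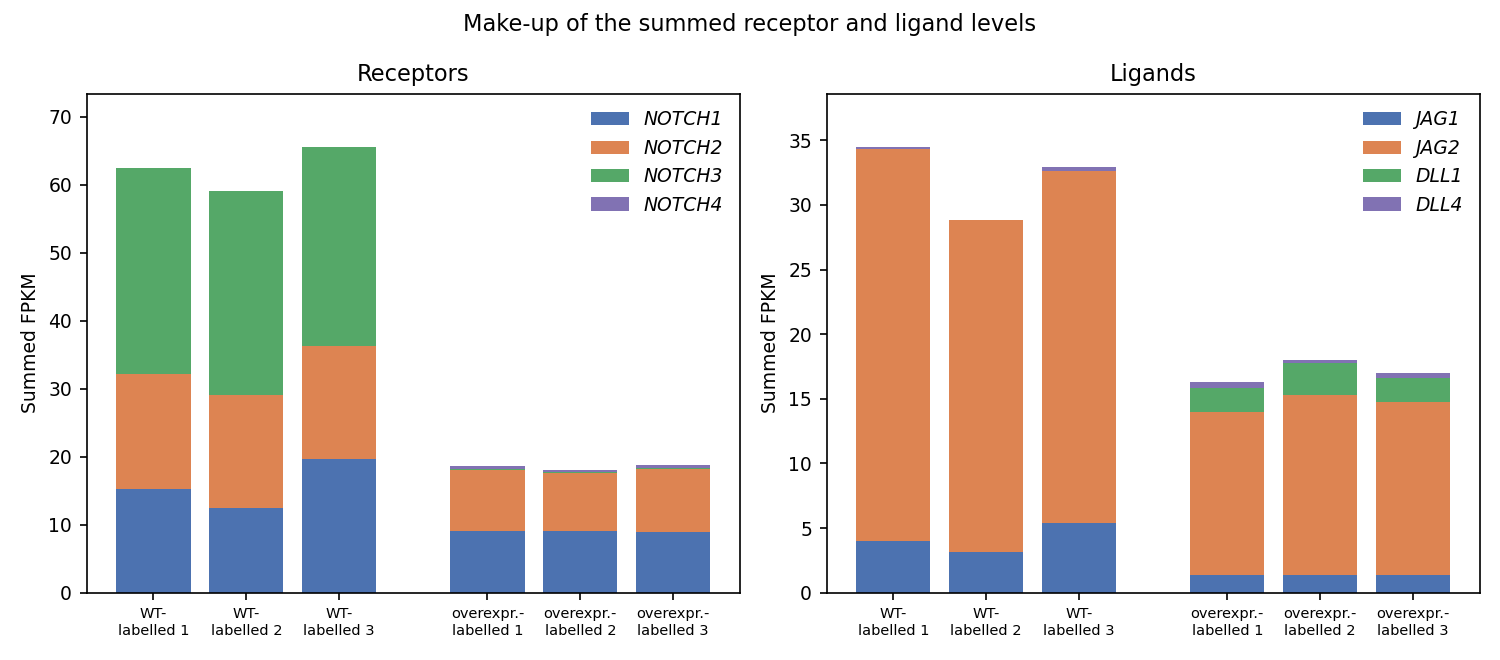
Stacked FPKM of the 4 receptors and of the 4 ligands in each library. NOTCH3 fills 44.5% to 50.9% of the receptor bar in the WT-labelled libraries and under 1% in the overexpression-labelled ones, and JAG2 fills most of every ligand bar.

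JAG2 was the leading ligand in all 6 libraries. JAG2, a Jagged ligand (ENSG00000184916, chromosome 14, 105140981 to 105168824, minus strand), stood at 30.3, 25.7 and 27.3 FPKM in the WT-labelled and 12.6, 13.9 and 13.3 FPKM in the overexpression-labelled libraries. The lowest WT-labelled value exceeded the highest of the other group, and the level was 2.09-fold lower under the overexpression label (log2 fold change -1.01, SE 0.075, limma adjusted p = 2.31e-05). Its share of the summed ligand level was 82.8% to 89.1% in the WT-labelled and 77.2% to 78.5% in the overexpression-labelled libraries. AL512356.1, which shares 469 exon bases with JAG2 on the same strand, had 0 reads throughout.

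JAG1, the ligand mutated in Alagille syndrome (ENSG00000101384, chromosome 20, 10637684 to 10673999, minus strand), stood at 4.00, 3.13 and 5.36 FPKM in the WT-labelled and 1.39, 1.39 and 1.40 FPKM in the overexpression-labelled libraries. The latter agreed closely, at 228, 234 and 233 reads, while the WT-labelled values had a coefficient of variation of 27.0%. JAG1 was 2.98-fold lower under the overexpression label (log2 fold change -1.09, SE 0.15, limma adjusted p = 5.89e-04). In the WT-labelled group, NOTCH1, JAG1, NOTCH4 and DLL4 were each highest in library 3 and lowest in library 2, and HES1, HEY1 and NOTCH3 were lowest in library 3.

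DLL1, a Delta ligand of progenitor and secretory precursor cells (ENSG00000198719, chromosome 6, 170282206 to 170306565, minus strand), was seen under the overexpression label alone. It measured 1.81, 2.47 and 1.86 FPKM there, from 103, 144 and 107 reads, and had 0 reads in each WT-labelled library. A count of 0 allows up to 3 reads over that group, or 0.0186 FPKM, which makes DLL1 at least 110-fold higher under the overexpression label, with a bound that covers counting error only. The fitted log2 fold change came to 1.60 (SE 0.11, limma adjusted p = 1.40e-05), and 4.41 with 0.1 added in place of 1. The mean over the 6 libraries lay just above the filter, and without any 1 overexpression-labelled library DLL1 was no longer tested.

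DLL4, the Delta ligand of sprouting vessels (ENSG00000128917, chromosome 15, 40929333 to 40939073, plus strand), was low everywhere. It had 11, 1 and 26 reads in the WT-labelled libraries and 39, 21 and 33 in the others, or 0.142, 0.0124 and 0.326 FPKM against 0.465, 0.244 and 0.388 FPKM. The groups overlapped, since WT-labelled library 3 lay above overexpression-labelled library 2. Without the filter the log2 fold change was 0.24, with a 95% confidence interval of -0.05 to 0.53. DLL4 was not called in that fit (limma adjusted p = 0.16). Its WT-labelled values spread widely, with a coefficient of variation of 98.5% beside 30.6% in the other group.

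Added up, the ligands came to 32.1 ± 2.9 FPKM in the WT-labelled and 17.1 ± 0.88 FPKM in the overexpression-labelled ones (SD, n = 3 each). The receptor sum was 1.81 to 2.05 times the ligand sum in the former and 1.005 to 1.14 times in the latter, with no overlap. The Delta ligands DLL1 and DLL4 together were a minor part throughout, DLL1 holding 10.9% to 13.7% of the ligand sum under the overexpression label.

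HES1 was higher under the overexpression label, where the summed receptor level was lower. HES1, the repressor through which Notch blocks secretory differentiation in the gut (ENSG00000114315, chromosome 3, 194136145 to 194138732, plus strand), stood at 11.4, 10.00 and 8.43 FPKM in the WT-labelled and 18.5, 19.4 and 18.3 FPKM in the overexpression-labelled libraries. All 3 overexpression-labelled libraries exceeded all 3 WT-labelled ones. The group means, 9.94 ± 1.5 and 18.8 ± 0.58 FPKM (SD, n = 3 each), lay 1.89-fold apart (log2 fold change 0.86, SE 0.10, limma adjusted p = 2.40e-04). HES1 per summed receptor level was 0.129 to 0.182 in the WT-labelled and 0.974 to 1.07 in the overexpression-labelled libraries. NOTCH3 made up 44.5% to 50.9% of that receptor sum in the WT-labelled libraries. Whether receptor levels bear on HES1 was not tested.

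HEY1, a related repressor of blood vessel and heart development (ENSG00000164683, chromosome 8, 79764010 to 79767863, minus strand), went the other way at a low level. It measured 1.61, 1.74 and 1.48 FPKM in the WT-labelled libraries but 0.105, 0.206 and 0.139 FPKM in the others, from 85, 95 and 80 reads against 6, 12 and 8. The groups did not overlap and HEY1 was 10.8-fold lower under the overexpression label. Its mean fell short of the filter, and the unfiltered log2 fold change of HEY1 came to -1.18 (SE 0.084, limma adjusted p = 1.13e-04). Without the filter 9 of the 10 members were called, 3 higher and 6 lower. Over all 33913 genes of that fit 44.5% were called, 24.0% higher and 20.5% lower. That share takes in genes under the filter, whereas 7 of the 10 members passed it. Among genes that passed it, 76.8% were called in the main fit.

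**Figure D3:**
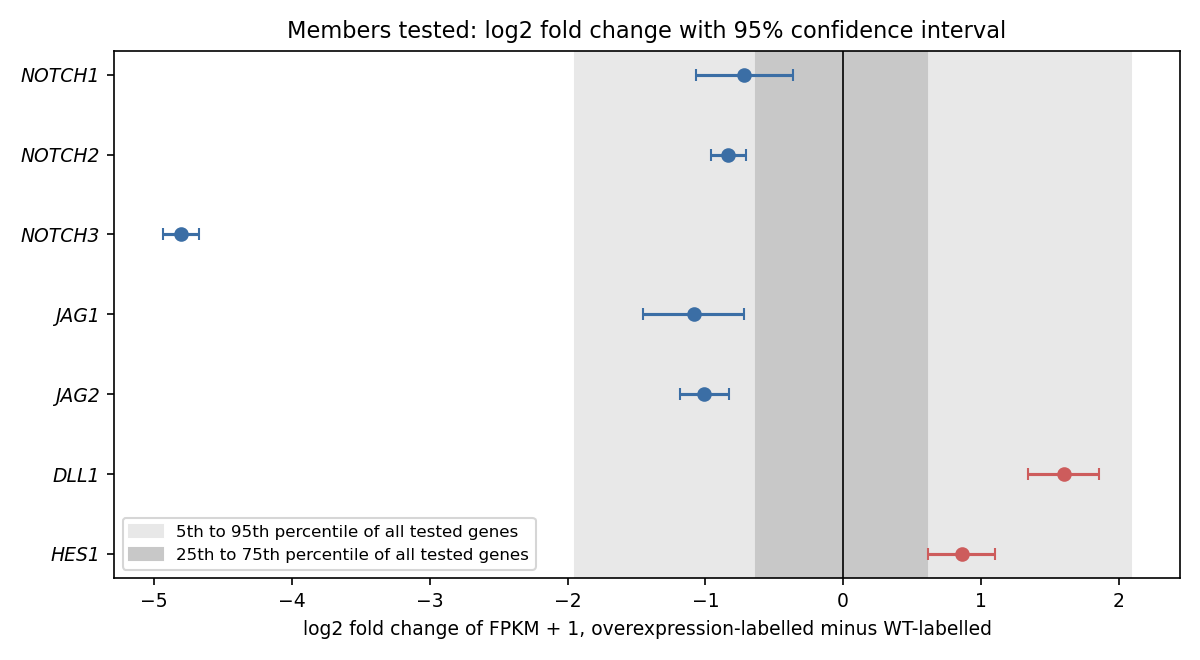
The log2 fold change of FPKM + 1 (overexpression-labelled minus WT-labelled) of the 7 members tested, with 95% confidence intervals, over the 25th to 75th and 5th to 95th percentiles of all 13972 genes tested. Only NOTCH3, at -4.81, lies outside the wider band, which runs from -1.94 to 2.09.

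The order of the members' levels differed between the groups. Under the overexpression label HES1 stood highest, followed by JAG2 and then by NOTCH1 and NOTCH2, which overlapped in range. DLL1 and JAG1 followed, then NOTCH4 and DLL4, which overlapped, and HEY1 and NOTCH3, which overlapped at the foot. In the WT-labelled libraries NOTCH3 and JAG2 stood highest and overlapped, as did NOTCH2 and NOTCH1 after them. HES1, JAG1 and HEY1 came next without overlap, then DLL4 and NOTCH4, which overlapped, and DLL1 with 0 reads. NOTCH3 thus held rank 1 of 10 in the WT-labelled group and rank 10 in the other. Among all protein-coding genes of the table its level exceeded 92.6% in the former and 31.5% in the latter, and HES1 exceeded 77.2% and 88.3%.

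The other HES and HEY genes were split in direction. Of 8 tested genes in a list of further HES, HEY and target genes, 3 were higher (HES6, HEYL and BHLHE40), 2 were lower (HES4 and HES7) and 3 did not pass. HES4 measured 117, 100.1 and 95.3 FPKM in the WT-labelled and 23.1, 25.9 and 24.8 FPKM in the overexpression-labelled libraries. It was the most abundant gene of the family in all 6 libraries, and 4.23-fold lower under the overexpression label (log2 fold change -2.03, SE 0.087, limma adjusted p = 1.71e-06). HES7, known from the segmentation clock of the embryo, was 3.36-fold lower, at 9.99 ± 0.66 against 33.6 ± 1.2 FPKM (SD, n = 3 each).

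HES6, which is known to counteract HES1, was 3.41-fold higher, at 12.6 ± 0.97 against 3.68 ± 0.39 FPKM (SD, n = 3 each; limma adjusted p = 5.98e-06). HEYL was 5.64-fold higher, at 2.04 ± 0.21 against 0.362 ± 0.098 FPKM. NRARP, a feedback inhibitor that Notch itself induces, measured 34.02 ± 0.52 FPKM under the overexpression label and 39.3 ± 5.2 FPKM under the WT label (log2 fold change -0.20, 95% confidence interval -0.42 to 0.03, limma adjusted p = 0.0995), and was chosen for mention after its values were seen. The ratio of HES4 to HES1 was 10.01 to 11.3 in the WT-labelled and 1.25 to 1.36 in the overexpression-labelled libraries. Over the summed level of 9 HES and HEY genes, HES1 made up 5.65% to 6.50% of it in the former and 25.1% to 26.4% in the latter.

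The 4 genes with the aligned core differed in direction. HES1 and HEYL were higher and HES4 lower under the overexpression label, and HES5 was too low for the main test. It had 1, 0 and 1 reads in the overexpression-labelled and 14, 15 and 1 in the WT-labelled libraries. Without the filter HES5 was not called (limma adjusted p = 0.103).

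**Figure D4:**
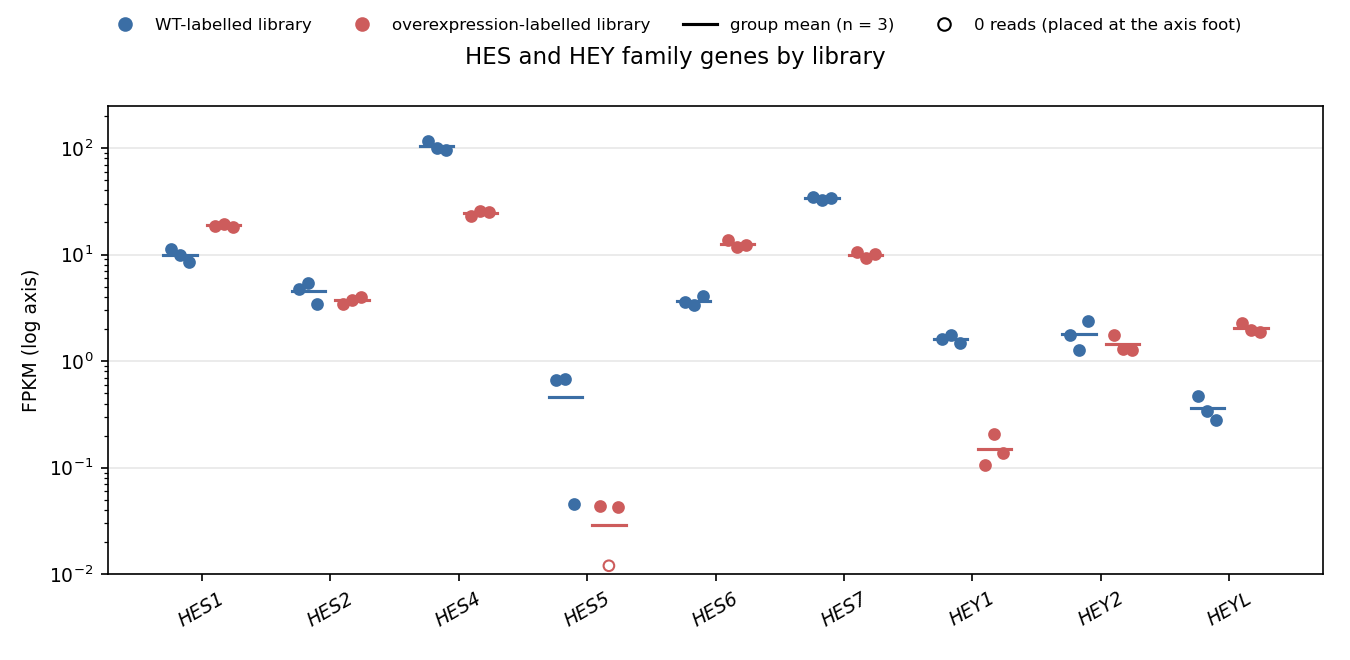
FPKM on a log axis of 9 HES and HEY genes in each library (points, hollow at the foot for 0 reads) with group means (bars, n = 3). HES1, HES6 and HEYL lie higher and HES4, HES7 and HEY1 lower in the overexpression-labelled libraries, while HES2 and HEY2 overlap between the groups.

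The genes that HES1 and Notch hold back in the gut were mostly absent. NEUROG3 and NEUROD1 had 0 reads in all 6 libraries, ATOH1 had 1 read over all 6, and INSM1 had 2. SPDEF, a goblet and Paneth cell factor, measured 3.69, 2.69 and 5.71 FPKM in the WT-labelled libraries and had 0 reads in the others, which makes it at least 138-fold lower under the overexpression label. GFI1, a secretory lineage repressor, was 10.6-fold higher, at 3.03 ± 0.28 against 0.286 ± 0.13 FPKM (SD, n = 3 each). DLL3, an inhibitory ligand, did not pass (3.76 ± 0.60 against 2.90 ± 0.57 FPKM, limma adjusted p = 0.0895). OLFM4, a crypt stem cell gene that Notch induces, had 0 reads throughout.

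The rest of the pathway was described through 9 lists by role, holding 94 genes, of which 74 were tested. Of these, 26 were higher and 28 lower under the overexpression label and 20 did not pass, so that 73.0% were called, near the 76.8% of all genes. Of the called genes 9 (DNER, NEURL1, GXYLT2, APH1B, L3MBTL3, DTX3, HEYL, GFI1 and SPDEF) passed the filter on low values through the group where they were high alone, so the counts of their lists support nothing by themselves. The median log2 fold change of the 74 tested genes was -0.08 and their median absolute value 0.44, beside 0.62 for all genes tested.

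Of 8 further ligand genes 7 had reads and 4 were tested, with 1 higher and 1 lower. DNER, a neuronal Notch ligand, had 2 reads under the overexpression label and 1743 under the WT label, where it measured 8.88 ± 0.78 FPKM (SD, n = 3), a ratio of 936 (95% counting interval 259 to 7739). DLK2 was 1.28-fold higher (limma adjusted p = 0.0125), a call that was lost without overexpression-labelled library 1 (adjusted p = 0.0546). CNTN1, which encodes a contactin, had 349 reads under the overexpression label and 0 under the WT label (at least 108-fold higher) and was too low for the test. MFAP5, also too low, lay the other way, with 2 reads under the overexpression label and 80 under the WT label. That is a ratio of 42.9 (95% counting interval 11.5 to 360). MFAP2 did not pass, at 4.65 ± 0.58 FPKM under the overexpression label and 6.25 ± 1.5 FPKM under the WT label (SD, n = 3 each; limma adjusted p = 0.0947). Ligands signal only when the sending cell takes them up, and of 7 tested genes of that uptake 3 were higher and 3 lower. NEURL1, a ubiquitin ligase for ligands, was 49.6-fold lower, at 0.109 ± 0.066 against 5.39 ± 0.48 FPKM. MIB1, the main such ligase in mammals, was 1.45-fold higher and the epsin gene EPN1 2.29-fold higher, while EPN2 was 1.60-fold lower.

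Genes that glycosylate and cut the receptors also went both ways. Of 9 tested glycosylation and maturation genes 5 were higher and 2 lower (median log2 fold change 0.18). The xylosyltransferase genes GXYLT1 and XXYLT1 were 1.76-fold and 1.99-fold higher, GXYLT2 was 4.34-fold lower, and TMED2, a cargo receptor, 1.51-fold lower. Of the 8 protease genes 1 was higher and 4 lower (median -0.11). The gamma-secretase subunit gene NCSTN was 1.72-fold lower, at 15.1 ± 0.45 against 25.9 ± 1.8 FPKM (SD, n = 3 each), and APH1B was 2.94-fold lower, whereas PSENEN was 1.84-fold higher. ADAM17 was 1.39-fold lower. ADAM10, the sheddase of ligand-bound receptors, measured 5.61 ± 0.26 and 5.72 ± 0.21 FPKM in the overexpression-labelled and WT-labelled groups (limma adjusted p = 0.726).

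In the nucleus, RBPJ, the DNA-binding partner of every Notch receptor, measured 7.55, 7.43 and 6.56 FPKM in the WT-labelled and 5.69, 5.80 and 5.64 FPKM in the overexpression-labelled libraries. Its level was 1.26-fold lower (a log2 change of -0.28, SE 0.067, limma adjusted p = 6.89e-03). Of 11 genes of the nuclear complex 4 were higher and 4 lower (median -0.03). CDK8, a Mediator kinase that marks the intracellular domain for breakdown, was 6.70-fold higher, at 27.2 ± 1.0 against 4.05 ± 0.14 FPKM (SD, n = 3 each). The coactivator gene MAML2 was 2.53-fold and EP300 1.81-fold higher, while CREBBP, a close relative of EP300, was 1.58-fold lower. Of 14 tested RBPJ corepressor genes 4 were higher and 8 lower (median -0.27), with TLE1 3.66-fold, TLE2 1.98-fold and SPEN 1.89-fold lower. The TLE genes were split in direction, since TLE3 was 1.73-fold higher, at 13.5 against 7.81 FPKM.

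Regulators of receptor turnover were 4 higher and 3 lower of 11 tested (median -0.05). DTX3, of the Deltex family of ubiquitin ligases, had 2671 reads under the overexpression label and 2 under the WT label, a ratio of 1235 (95% counting interval 342 to 10203). DTX4 of the same family was 3.35-fold lower. NUMBL, a relative of the Notch inhibitor NUMB, was 3.22-fold lower, at 4.59 ± 0.21 against 14.8 ± 0.53 FPKM (SD, n = 3 each), and the ubiquitin ligase gene CBL 2.41-fold lower. Named outside the ranking by size of change were RBPJ, ADAM10, CNTN1, MFAP2, MFAP5, NRARP, L3MBTL3, BHLHE40 and TLE3. So were HES2, HES5, HEY2, DLL3 and the genes with 0 to 2 reads. The other genes named from the lists are among the called genes with the largest changes in each, and nothing is read from a list beyond its count.

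**Figure D5:**
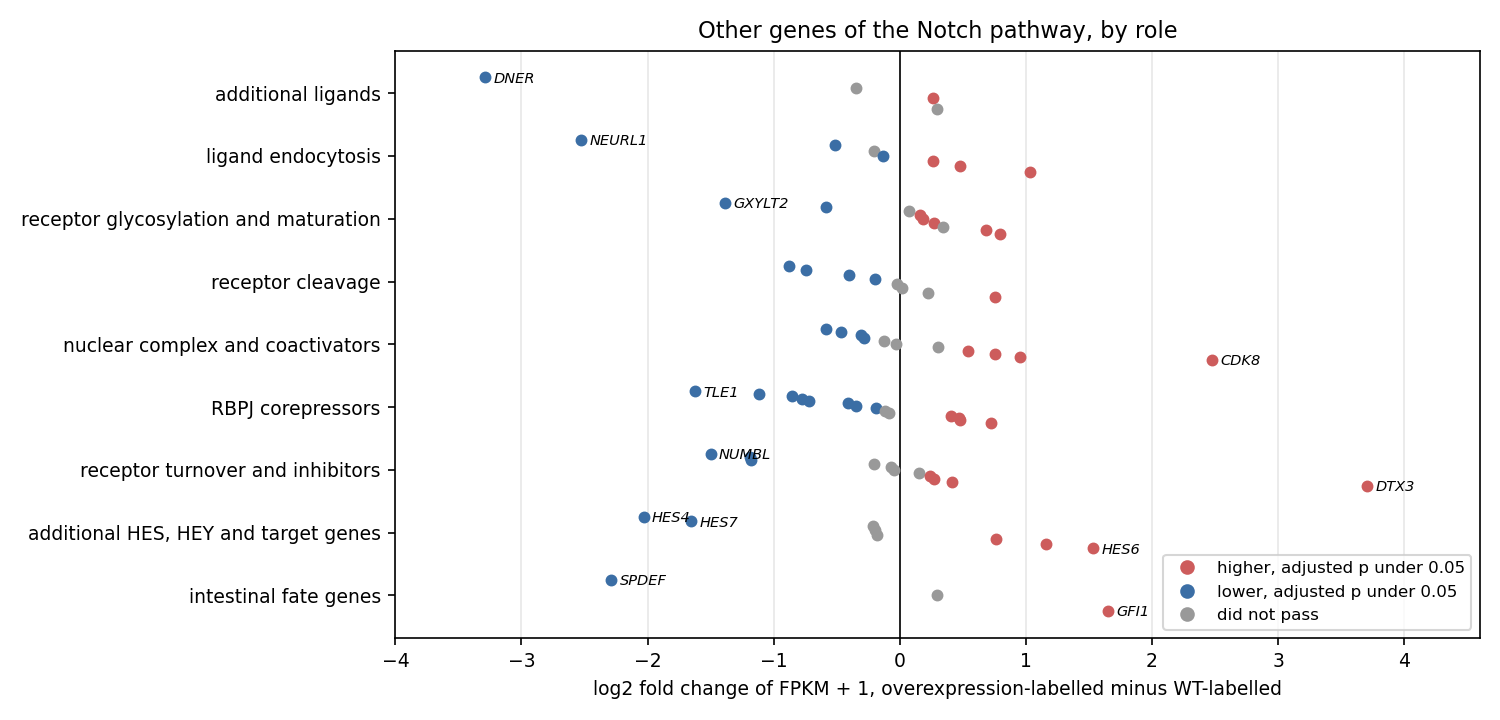
The log2 fold change of FPKM + 1 (overexpression-labelled minus WT-labelled) of the tested genes of the 9 lists, 1 point per gene and 1 row per list, coloured by the call at a limma adjusted p of 0.05. Most points lie within 1 unit of 0, and DTX3 (3.71), CDK8 (2.48), DNER (-3.29) and NEURL1 (-2.53) lie farthest out.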

How the data were processed

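RNA of 6 samples labelled SW480 was made into libraries with a SMARTer kit for mRNA, per the labels' protocols. The authors deposited FPKM per gene and library. The unit was read from the table's name and values, since the headers name only samples, and the sources used here give no aligner or counter. The build named in the submitters' processing notes is mm10, a mouse build, whereas all 10 members matched human GENCODE release 29 in position and strand. Deposited gene lengths times FPKM gave whole reads (within 0.001) for 100% of values above 0. The table held 0 further value columns.

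The test was limma 3.58.1 (R 4.3.3) with a variance trend, two-sided, on log2(FPKM + 1), with no term but group. It took genes that averaged 1 FPKM or more, with Benjamini-Hochberg adjustment over all genes tested. This scale understates changes of low genes. Folds are ratios of mean FPKM; against 0 reads they are lower bounds set at 3 reads over the group, and 1 to 3 reads carry an exact 95% interval, all for counting error only. On reads simulated for 13972 genes, 98% of 50 genes changed 2-fold up and 90% of 50 changed to 0.5-fold were called, as were 21 of 13772 unchanged genes. The simulation gave every library the same spread and changed few genes. In the data the median SD of log2 values was 0.128 in the WT-labelled and 0.059 in the overexpression-labelled group, and most genes were called. These rates therefore need not hold for the data. The members and lists were chosen with earlier results of these data known. Named were all members, DDX39B, RBPJ, and up to 4 called genes per list by size of change; BHLHE40, HES5, ADAM10, NRARP, DLL3, CNTN1, MFAP2, L3MBTL3 and undetected genes were added after their values were seen, and 2 genes of the lists are counted but not reported by name here. A symbol held by more than 1 row was taken from the row with the higher mean. Strand use in counting is not given, so genes that overlap may share reads. The alternatives changed the pseudocount, filter, scaling, model, replicate block and libraries used.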

Additional observations from a re-analysis of the deposited data

How the results depend on the processing

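The 7 tested members kept their direction and their call under all 13 alternatives in which they were tested. These were a pseudocount of 0.1, no filter, TPM scaling, quantile normalization, FPKM on the sum of reads, voom on the reads, the replicate block, and each of 6 libraries left out, with DLL1 under the filter in the 3 fits that left out an overexpression-labelled library. Log2 fold changes ranged from -0.87 to -0.56 for NOTCH1, -0.90 to -0.74 for NOTCH2, -8.05 to -4.76 for NOTCH3, -1.48 to -0.92 for JAG1, -1.06 to -0.90 for JAG2, 1.55 to 7.88 (voom) for DLL1 and 0.76 to 1.03 for HES1. HEY1 was lower (-2.12 to -1.16) in each of the 5 alternatives that tested it (TPM scaling, no filter, and each overexpression-labelled library left out). Calls over all genes ran from 9794 to 15105, and the median log2 fold change of all tested genes from -0.06 to 0.08 (voom), against -0.03; the voom shift exceeds 0.1, and the members held their directions under it. Of the other pathway genes, 44 to 58 were called beside 54. Same-numbered libraries did not deviate together (r across genes -0.0059, -0.022 and 0.0075), so the numbers are taken as names only; with the replicate block 10506 genes, 7 members and 52 other pathway genes were called. Depth limits NOTCH4, DLL4 and HEY1, which rest on 19, 38 and 26 reads in their lower group.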
